A study of Mus musculus with 75 samples.

Results

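The change in the lung between day 7 and day 14 after bleomycin was read from the gene counts of 22 BLEO-IPF mice, 10 killed on day 7 and 12 killed on day 14. The mice were taken by the treatment and time point of their labels, and they are 22 of the 75 mice of the series. Male C57BL/6JRj mice, 12 to 14 weeks old, had received bleomycin once into the trachea, and the mice of both days had been picked for a body weight loss of 5 to 17% on day 6. Both groups therefore passed the same selection on day 6, but the day 14 mice had also to survive from day 7 to day 14. Every mouse was sampled once, so no mouse was followed from one day to the other. The 10 CTRL mice are used only as the level from which both days departed. Their sample titles call them saline mice, whereas the treatment text calls them untreated. RNA came from the whole inferior lobe, in which fewer cells of a type and less RNA per cell cannot be told apart.

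Bleomycin breaks DNA and kills alveolar epithelial cells, after which the lobe fills with neutrophils, monocytes and macrophages. Fibroblasts that answer to TGF-beta then make collagen, elastin and the enzymes that crosslink them, while surviving type 2 cells divide and pass through a transitional state to replace the flat type 1 cells. The first week of the model is usually read as injury and inflammation, and the second as the onset of fibrosis. The genes below are ordered by these roles.

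Total counts ranged from 9718300 to 12329251 per mouse on day 7 and from 9859808 to 13419601 on day 14. Levels are given as CPM, which are counts scaled to a common library total after TMM factors. All 6 genes used to check the tissue (*Sftpc*, *Sftpb*, *Ager*, *Scgb1a1*, *Pecam1* and *Foxj1*) were present in every mouse, the lowest value being 39.5 CPM for *Foxj1*. Some mice stood apart from their group. On the first principal component of the 22 mice, which held 30.4% of the variance, the day 7 mice lay between -32.4 and -8.39. Day 14 replicates 8 and 1 were farthest from them at 71.8 and 61.7, while day 14 replicates 5, 6 and 11 lay inside the day 7 range at -12.1, -10.9 and -23.2. Day 7 replicate 8 carried adipose genes, with *Adipoq* at 66.3 CPM against at most 1.37 CPM in the other day 7 mice. List counts that changed markedly when these mice were left out, and the values of named genes whose call was lost, are given beside the result.

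Of 16221 genes tested, 2763 differed between day 14 and day 7 (17% of those tested) at an adjusted p under 0.05 by edgeR's quasi-likelihood test, and such genes are called DEGs here. 1538 were higher on day 14 (9.48%) and 1225 were lower (7.55%). Most changes were small. The median DEG moved by 0.48 on the log2 scale in either direction, and 229 DEGs rose and 99 fell by more than 1, that is by more than 2-fold. The balance of higher and lower DEGs depended on the scaling. With TMM factors 55.7% of the DEGs were higher, and with library size alone 42.4% (1202 against 1631). Upper quartile factors gave 45.8% (1302 against 1543), so no excess in either direction is read from these counts. Without day 14 replicates 1 and 8 there were 1866 DEGs, 1029 higher and 837 lower. In the same fit 4030 genes lay above and 3399 below CTRL on day 7, and 5262 above and 4856 below CTRL on day 14.

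**Figure D1:**
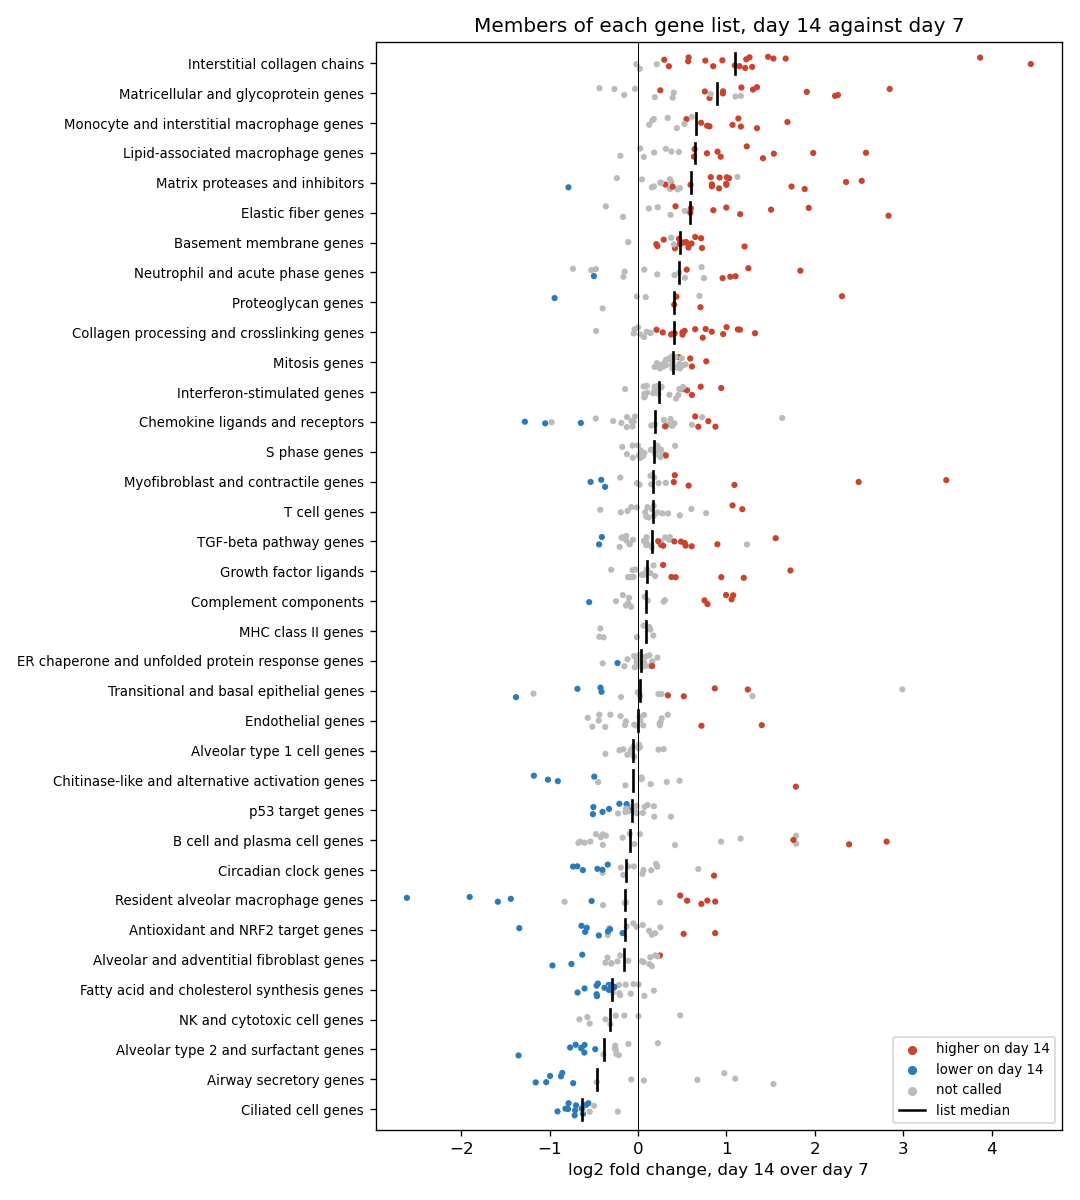
Each dot is a tested member of a gene list, placed on the horizontal axis by its log2 fold change from day 7 to day 14 and coloured by its call, and the black bar is the median of the list. Lists of lung and immune cell genes are ordered by their medians, from 1.09 for interstitial collagen chains at the top to -0.64 for ciliated cell genes at the bottom.

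For 58 genes every day 14 mouse lay above every day 7 mouse, and for 7 genes every day 14 mouse lay below. All of them were DEGs. The 10 with the largest increases among protein-coding genes with a mean log2 CPM above 1 included genes of the matrix and of the cells that make it. *Grem1* (gremlin 1, a secreted antagonist of BMP ligands; ENSMUSG00000074934, chr2:113746164-113758646 in GRCm38) was present at 2.19 to 4.51 CPM (median 2.98) on day 7 and 6.06 to 101 CPM (median 29.1) on day 14. This was the largest increase of the 10 (log2FC = 3.48 ± 0.70, adjusted p = 0.000361; ± gives the standard error of the log2 fold change throughout). *Fmod* (fibromodulin, a small proteoglycan that binds collagen fibrils; ENSMUSG00000041559, chr1:134037254-134048277) was present at 13.9 to 26.6 CPM (median 18.3) on day 7 and 44.01 to 134 CPM (median 94.4) on day 14 (log2FC = 2.31 ± 0.38, adjusted p = 1.53e-05). The log2FC of *Fmod* relative to CTRL were 0.28 on day 7 and 2.59 on day 14, the day 7 value not passing the edgeR test (adjusted p = 0.579). *Cthrc1* (a secreted glycoprotein of activated fibroblasts; ENSMUSG00000054196, chr15:39076932-39087121) was present at 2.49 to 8.94 CPM (median 5.15) on day 7 and 11.2 to 46.5 CPM (median 24.3) on day 14 (log2FC = 2.23 ± 0.43, adjusted p = 0.000203), and its log2FC relative to CTRL were 0.27 on day 7 and 2.5 on day 14. *Eln* (elastin; ENSMUSG00000029675, chr5:134702593-134747323) was present at 655 to 1759 CPM (median 1361) on day 7 and 1838 to 8897 CPM (median 3499) on day 14 (log2FC = 1.93 ± 0.36, adjusted p = 0.000126). *Eln* already stood above CTRL on day 7, its log2FC relative to CTRL being 2.94 on day 7 and 4.87 on day 14. *Mmp13* (a collagenase; ENSMUSG00000050578, chr9:7272514-7283331) was present at 0.7298 to 2.82 CPM (median 2.17) on day 7 and 2.87 to 18.9 CPM (median 8.66) on day 14 (log2FC = 2.35 ± 0.37, adjusted p = 1.19e-05).

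The other separated increases came from macrophage genes and from genes with less studied roles in the lung. *Acp5* (a tartrate-resistant acid phosphatase of osteoclasts and macrophages; ENSMUSG00000001348, chr9:22126727-22135711) was present at 22.6 to 39.6 CPM (median 27.6) on day 7 and 48.3 to 94.9 CPM (median 65.9) on day 14 (log2FC = 1.30 ± 0.20, adjusted p = 4.41e-06). *Clec4d* (a C-type lectin receptor of myeloid cells; ENSMUSG00000030144, chr6:123262111-123275265) was present at 4.86 to 7.06 CPM (median 6.27) on day 7 and 9.82 to 29.6 CPM (median 11.6) on day 14 (log2FC = 1.27 ± 0.22, adjusted p = 4.4e-05). *Wfdc17* (a small secreted protein of myeloid cells; ENSMUSG00000069792, chr11:83703991-83706268) was present at 11.5 to 19.3 CPM (median 14.2) on day 7 and 21.1 to 114 CPM (median 34.8) on day 14 (log2FC = 1.63 ± 0.30, adjusted p = 0.000122), the highest day 14 value again standing far above that day's median. *Ankrd34b* (ENSMUSG00000045034, chr13:92425896-92441658) had the second largest increase of the 10 from a low level, at 0.176 to 1.58 CPM (median 0.651) on day 7 and 3.36 to 9.17 CPM (median 5.66) on day 14 (log2FC = 3.11 ± 0.36, adjusted p = 1.23e-08). *Stac2* (ENSMUSG00000017400, chr11:98036623-98053462) was present at 1.23 to 3.13 CPM (median 2.33) on day 7 and 3.69 to 12.5 CPM (median 6.46) on day 14 (log2FC = 1.63 ± 0.23, adjusted p = 9.08e-07), and on day 7 its log2FC relative to CTRL had been 0.19.

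The 7 separated decreases were smaller than these increases, and 2 of them are genes of sterol synthesis. *Acat2* (acetyl-CoA acetyltransferase, an early step towards cholesterol; ENSMUSG00000023832, chr17:12942890-12960747) was present at 28.1 to 37.3 CPM (median 30.7) on day 7 and 18.2 to 26.4 CPM (median 20.8) on day 14 (log2FC = -0.55 ± 0.10, adjusted p = 5.13e-05). *Nsdhl* (a sterol dehydrogenase; ENSMUSG00000031349, chrX:72918557-72958514) was present at 28.9 to 39.01 CPM (median 32.4) on day 7 and 18.05 to 28.7 CPM (median 23.9) on day 14 (log2FC = -0.47 ± 0.08, adjusted p = 5.13e-05). Both had risen above CTRL by day 7 and lay near it on day 14, the log2FC relative to CTRL being 0.48 on day 7 and -0.07 on day 14 for *Acat2* and 0.61 on day 7 and 0.14 on day 14 for *Nsdhl*. *Cacna2d4* (an auxiliary subunit of voltage-gated calcium channels; ENSMUSG00000041460, chr6:119236526-119352407) fell most, from 5.63 to 11.6 CPM (median 7.29) on day 7 to 1.39 to 5.33 CPM (median 4.04) on day 14 (log2FC = -1.14 ± 0.19, adjusted p = 1.76e-05). *Cth* (cystathionine gamma-lyase, which makes cysteine; ENSMUSG00000028179, chr3:157894248-157925077) was present at 6.45 to 9.91 CPM (median 8.27) on day 7 and 2.79 to 5.94 CPM (median 4.68) on day 14 (log2FC = -0.89 ± 0.14, adjusted p = 5.95e-06). *Tmprss4* (a membrane serine protease of epithelial cells; ENSMUSG00000032091, chr9:45172726-45204092) was present at 34.2 to 45.6 CPM (median 38.4) on day 7 and 15.1 to 33.4 CPM (median 20.97) on day 14 (log2FC = -0.72 ± 0.10, adjusted p = 8.02e-07). Its day 7 level was above CTRL and its day 14 level below, with log2FC of 0.49 on day 7 and -0.23 on day 14. *Fmo1* (a flavin monooxygenase; ENSMUSG00000040181, chr1:162829561-162866610) was present at 245 to 489 CPM (median 298) on day 7 and 129.9 to 242 CPM (median 196) on day 14 (log2FC = -0.72 ± 0.18, adjusted p = 0.00421). *Slc1a5* (a glutamine transporter; ENSMUSG00000001918, chr7:16781340-16798274) was present at 142 to 197 CPM (median 163) on day 7 and 102 to 140.5 CPM (median 118) on day 14 (log2FC = -0.47 ± 0.11, adjusted p = 0.00106).

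Among the lists of matrix, immune, epithelial and metabolic genes, that of the interstitial collagen chains had the largest median change. Of 21 chains tested, 18 rose and 0 fell, against 16 and 0 without day 14 replicates 1 and 8 (median 0.76), with a median log2FC of 1.09 against 0.001802 over all genes tested. *Col1a1*, a chain of the main fibril collagen, was present at 692 to 1522 CPM (median 943) on day 7 and 1028 to 4459 CPM (median 1967) on day 14, and 9 of 12 day 14 mice lay above every day 7 mouse (log2FC = 1.22 ± 0.31, adjusted p = 0.00413). *Col3a1*, of reticular fibers, was present at 1443 to 2912 CPM (median 2046) on day 7 and 2153 to 5245 CPM (median 3467) on day 14 and rose less (log2FC = 0.76 ± 0.18, adjusted p = 0.00192). *Col5a1*, which sets fibril diameter, was present at 119 to 288 CPM (median 176) on day 7 and 202 to 1143 CPM (median 424) on day 14 (log2FC = 1.53 ± 0.31, adjusted p = 0.000323). The largest increases were in chains that are best known from cartilage and are scarce in the healthy lung. *Col11a1* was present at 0.0879 to 0.923 CPM (median 0.291) on day 7 and 0.738 to 27.9 CPM (median 6.43) on day 14 (log2FC = 4.44 ± 0.98, adjusted p = 0.000981). *Col10a1* was present at 0 to 0.166 CPM (median 0) on day 7 and 0.164 to 1.196 CPM (median 0.9599) on day 14 (log2FC = 3.87 ± 0.95, adjusted p = 0.0033). The day 14 mice spread widely for both chains, but 11 and 11 of 12 lay above every day 7 mouse. The members that did not pass the test were *Col6a1* (log2FC = 0.21), *Col8a2* (0.02) and *Col14a1* (-0.02), a chain of adventitial fibroblasts. The median of the list relative to CTRL was 0.87 on day 7 and 2.08 on day 14 on the log2 scale.

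Basement membrane genes, which encode the sheet under epithelium and endothelium, rose as often but by less. 18 of 21 rose and 0 fell (median log2FC 0.48), and relative to CTRL their median was 0.08 on day 7 and 0.55 on day 14. *Col4a1*, the common type IV collagen, was present at 1254 to 2465 CPM (median 1991) on day 7 and 2277 to 4929 CPM (median 2987) on day 14 (log2FC = 0.72 ± 0.16, adjusted p = 0.00086), with the limit that it shares exon bases with *Col4a2* on the opposite strand. *Col4a3*, a chain of the mature alveolar membrane, was present at 191 to 331 CPM (median 312) on day 7 and 189 to 564 CPM (median 415) on day 14 (log2FC = 0.50 ± 0.14, adjusted p = 0.00745). Its log2FC relative to CTRL were -0.13 on day 7 and 0.37 on day 14, and those of *Col4a1* 0.88 on day 7 and 1.61 on day 14. *Lama1*, a laminin chain of the embryo, rose most, being present at 5.45 to 24.4 CPM (median 16.4) on day 7 and 18.5 to 51.3 CPM (median 31.9) on day 14 (log2FC = 1.20 ± 0.35, adjusted p = 0.0112).

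The enzymes that finish collagen rose with it, 17 of 26 being higher and 0 lower (median log2FC 0.40). Taken as the mean log2 CPM of the list, all 12 day 14 mice lay above all day 7 mice, at 6.2 to 6.43 (median 6.29) on day 7 and 6.45 to 7.04 (median 6.67) on day 14. Of the crosslinking enzymes, *Lox* was present at 139 to 452 CPM (median 208) on day 7 and 182 to 1089 CPM (median 389) on day 14 (log2FC = 1.13 ± 0.31, adjusted p = 0.00783), with 5 of 12 day 14 mice above every day 7 mouse, and *Loxl2*, *Loxl3* and *Loxl4* had log2FC of 1.15, 0.83 and 1.00. *Lox* no longer passed the test without day 14 replicates 1 and 8 (log2FC = 0.83, adjusted p = 0.0665). *P4ha3*, a prolyl hydroxylase subunit, rose most in this list, with 8.68 to 17.7 CPM (median 13.1) on day 7 and 13.4 to 51.7 CPM (median 28.9) on day 14 (log2FC = 1.32 ± 0.33, adjusted p = 0.0038). The subunits *P4ha1* and *P4ha2*, by contrast, had log2FC of 0.00 and 0.07 and did not pass the test. *Serpinh1*, the collagen chaperone of the endoplasmic reticulum, was present at 316 to 514 CPM (median 459.8) on day 7 and 478 to 778 CPM (median 624) on day 14 (log2FC = 0.53 ± 0.11, adjusted p = 0.000859).

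Few general chaperones of the endoplasmic reticulum passed the test. Of 24 genes of this kind 1 rose (4.17%, against 9.48% of all genes) and 1 fell (4.17%, against 7.55%). Their median log2FC was 0.03, or -0.01 with library size scaling, and without day 14 replicates 1 and 8, 0 rose and 1 fell. *Hspa5* (BiP) was present at 614 to 820.4 CPM (median 718) on day 7 and 682 to 862 CPM (median 754) on day 14 (log2FC = 0.07 ± 0.08, adjusted p = 0.603). *Pdia4* was present at 114 to 158 CPM (median 146) on day 7 and 97.6 to 178 CPM (median 144) on day 14 (log2FC = 0.06 ± 0.08, adjusted p = 0.666). For both, the days overlapped almost completely, and both stood above CTRL on each day, with log2FC of 0.43 on day 7 and 0.50 on day 14 for *Hspa5*. The DEGs were *Sel1l* (log2FC = 0.16 ± 0.06, adjusted p = 0.0396) and *Herpud1* (log2FC = -0.23 ± 0.07, adjusted p = 0.0229), a pair of proteins of the degradation pathway of the endoplasmic reticulum. The *Sel1l* call was lost when any 1 of 10 mice was left out (adjusted p up to 0.163 by edgeR), and that of *Herpud1* without day 7 replicates 5 or 7 or day 14 replicate 1 (up to 0.0587).

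**Figure D2:**
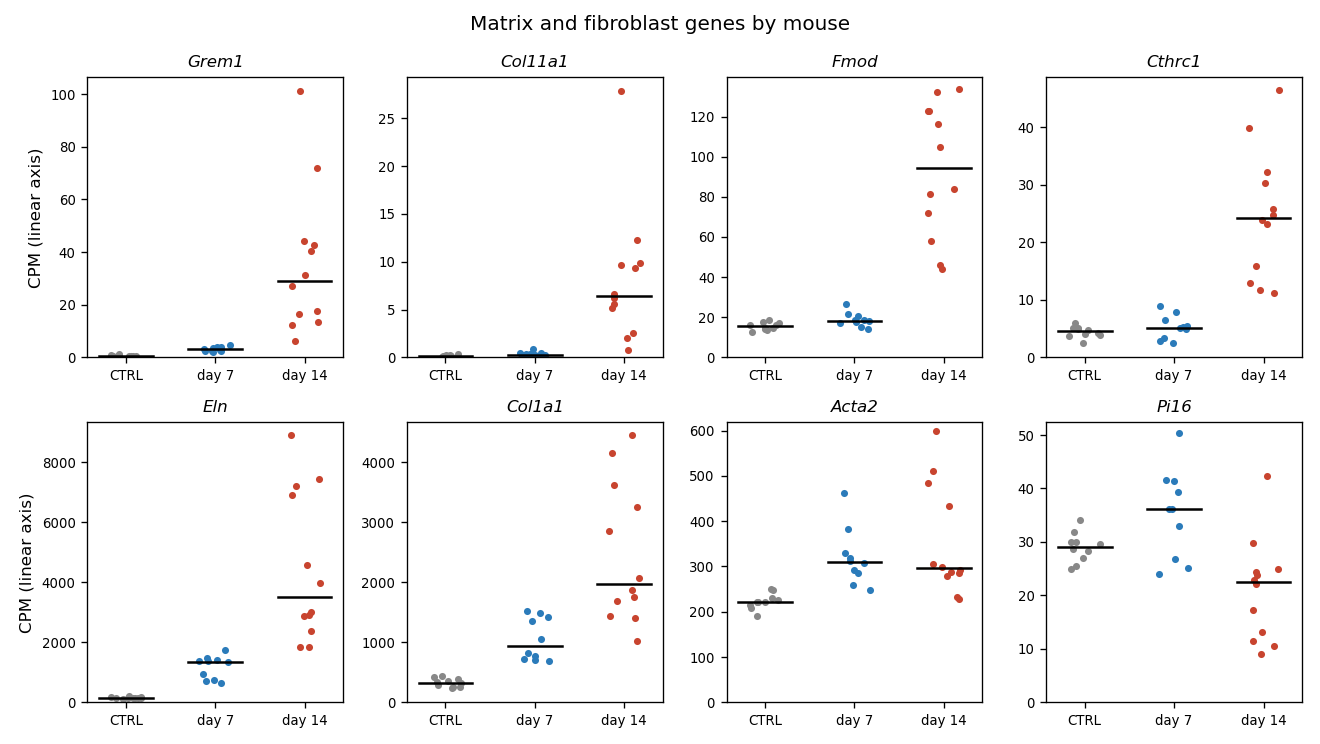
Each dot is 1 mouse and the bar is the group median, on a linear axis of CPM for CTRL (n = 10), day 7 (n = 10) and day 14 (n = 12). *Grem1*, *Fmod*, *Cthrc1* and *Eln* show no overlap between the days, *Acta2* overlaps almost fully, and *Pi16* moves down.

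Matricellular proteins, which signal from the matrix rather than bear load, rose in 12 of 22 cases and fell in 0 (median log2FC 0.89), against 10 and 0 without day 14 replicates 1 and 8 (median 0.59). *Fn1* (fibronectin, the first scaffold on which collagen is laid) was present at 1114 to 3345 CPM (median 2009.5) on day 7 and 1942 to 10818 CPM (median 4719) on day 14 (log2FC = 1.35 ± 0.33, adjusted p = 0.00271). *Tnc* (tenascin C) was present at 134 to 399 CPM (median 235) on day 7 and 175 to 969 CPM (median 379) on day 14 and passed the test narrowly (log2FC = 0.96 ± 0.35, adjusted p = 0.045). The *Tnc* call was lost when any 1 of 12 mice of either day was left out (adjusted p up to 0.108 by edgeR), and without day 14 replicates 1 and 8 together (log2FC = 0.67, adjusted p = 0.219). *Postn* (periostin), already at a high level in CTRL mice, rose by only 0.25 on the log2 scale (adjusted p = 0.0157 by edgeR). *Cemip*, which degrades hyaluronan, rose most in this list, with 1.34 to 11.5 CPM (median 5.71) on day 7 and 8.77 to 75.3 CPM (median 48.2) on day 14 (log2FC = 2.85 ± 0.55, adjusted p = 0.00022). The thrombospondins *Thbs2*, *Thbs4* and *Thbs1* rose with log2FC of 2.26, 1.91 and 0.96, and *Ccn2* (connective tissue growth factor) with 0.76.

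Elastic fiber genes showed the same pattern, 9 of 15 rising and 0 falling (median log2FC 0.59), with list means of 6.70 to 7.25 (median 6.92) on day 7 and 7.18 to 7.96 (median 7.68) on day 14. *Fbn2*, a fibrillin of developing tissue, was present at 0.192 to 2.21 CPM (median 0.731) on day 7 and 0.8196 to 11.3 CPM (median 5.92) on day 14 (log2FC = 2.83 ± 0.57, adjusted p = 0.000321). *Fbn1*, the adult fibrillin, was present at 221 to 635 CPM (median 431) on day 7 and 424 to 1685 CPM (median 767) on day 14 (log2FC = 1.00 ± 0.23, adjusted p = 0.00136). The log2FC relative to CTRL were 0.13 on day 7 and 2.96 on day 14 for *Fbn2* and 1.59 on day 7 and 2.59 on day 14 for *Fbn1*, of which only the day 7 value of *Fbn2* missed the threshold (adjusted p = 0.892 by edgeR). *Fbln1* and *Ltbp4* had log2FC of -0.36 and -0.17 and did not pass the test. The small proteoglycans split. *Fmod*, *Aspn*, *Podn* and *Bgn* rose and *Omd* (osteomodulin) fell (4 higher and 1 lower of 9, median log2FC 0.41), and without day 7 replicate 8, 2 fell. *Bgn* (biglycan) was present at 1339.5 to 1855 CPM (median 1579.6) on day 7 and 1686 to 3126 CPM (median 2110.2) on day 14 (log2FC = 0.41 ± 0.12, adjusted p = 0.0112). *Omd* was present at 1.497 to 3.77 CPM (median 2.19) on day 7 and 0.487 to 2.13 CPM (median 1.26) on day 14 (log2FC = -0.94 ± 0.22, adjusted p = 0.00187). *Dcn* (decorin), which binds TGF-beta, was present at 149 to 252 CPM (median 198) on day 7 and 117 to 314 CPM (median 172) on day 14 (log2FC = -0.01 ± 0.18, adjusted p = 0.972), so that no change was detected.

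Many genes of enzymes that cut matrix rose. Of 29 proteases and inhibitors, 16 rose and 1 fell (median log2FC 0.59), and relative to CTRL the list median was 0.93 on day 7 and 1.62 on day 14. *Mmp14*, the membrane collagenase that activates *Mmp2*, was present at 122 to 206 CPM (median 179) on day 7 and 163 to 514 CPM (median 288) on day 14 (log2FC = 0.92 ± 0.24, adjusted p = 0.00497), and *Mmp2* itself rose with log2FC = 0.82. *Mmp10* (stromelysin 2) was listed at 0 in most CTRL mice and was present at 0.192 to 1.38 CPM (median 0.638) on day 7 and 0.409 to 13.5 CPM (median 1.64) on day 14 (log2FC = 2.53 ± 0.65, adjusted p = 0.00453), with 6 of 12 day 14 mice above every day 7 mouse. *Ctsk*, a cathepsin that digests collagen, and *Fap*, a membrane peptidase of activated fibroblasts, rose with log2FC of 1.00 and 0.92. Among inhibitors, *Timp1* was already far above CTRL on day 7 and was present at 65.2 to 150.1 CPM (median 101) on day 7 and 42.4 to 295 CPM (median 126) on day 14 (log2FC = 0.45 ± 0.40, adjusted p = 0.485). *Timp4*, which shares exon bases with *Syn2* on the opposite strand, was the single member to fall (log2FC = -0.79 ± 0.24, adjusted p = 0.0174), a call lost without day 7 replicate 5 (log2FC = -0.67, adjusted p = 0.0535).

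Changes in the TGF-beta pathway itself were small. Of 32 members, 10 rose and 2 fell (median log2FC 0.15), and without day 14 replicates 1 and 8, 5 rose and 1 fell (median 0.08). All 5 ligand genes of the list rose. *Tgfb1* was present at 75.7 to 113 CPM (median 93) on day 7 and 90.1 to 132 CPM (median 108) on day 14 (log2FC = 0.28 ± 0.09, adjusted p = 0.0148), and *Tgfb2* and *Tgfb3* had log2FC of 0.49 and 0.53. *Inhbb*, an activin subunit like *Inhba*, rose by 0.61. *Inhba*, the subunit of activin A, rose more, with 5.56 to 16.3 CPM (median 11.1) on day 7 and 7.38 to 97.6 CPM (median 27.5) on day 14 (log2FC = 1.56 ± 0.47, adjusted p = 0.0161), but did not pass the test without day 14 replicate 1 (log2FC = 1.28, adjusted p = 0.0541) or without replicates 1 and 8 (log2FC = 1.12, adjusted p = 0.114). Of the receptors, *Tgfbr1* was present at 83.2 to 126 CPM (median 117) on day 7 and 103 to 203 CPM (median 146) on day 14 (log2FC = 0.41 ± 0.10, adjusted p = 0.00318). *Tgfbr3* (betaglycan, a coreceptor) went the other way, at 82.9 to 133 CPM (median 100.2) on day 7 and 60.2 to 113 CPM (median 70.6) on day 14 (log2FC = -0.41 ± 0.11, adjusted p = 0.00544). *Bambi*, a decoy receptor that dampens the signal, was present at 13.6 to 24.3 CPM (median 15.9) on day 7 and 7.64 to 17.1 CPM (median 12.6) on day 14 (log2FC = -0.44 ± 0.16, adjusted p = 0.047), a call that was lost when any 1 of 14 mice was left out. The signal carriers *Smad2*, *Smad3* and *Smad4* had log2FC of 0.07, 0.09 and 0.07 and did not pass the test. *Smad7*, the inhibitor that the pathway induces, had -0.09.

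Among 20 growth factor ligands, 6 rose and 0 fell (median log2FC 0.10), against 4 and 0 without day 14 replicates 1 and 8 (median 0.05). *Igf1*, which macrophages and fibroblasts release, was present at 48.1 to 91.1 CPM (median 79.2) on day 7 and 83.8 to 200.01 CPM (median 141) on day 14, with 11 of 12 day 14 mice above every day 7 mouse (log2FC = 0.94 ± 0.26, adjusted p = 0.00785). *Pdgfc*, a mitogen of fibroblasts, had log2FC = 1.20 ± 0.31. *Ereg* (epiregulin, a ligand of the EGF receptor) had the largest fitted change, with 2.397 to 8.79 CPM (median 5.03) on day 7 and 1.72 to 77.5 CPM (median 7.32) on day 14 (log2FC = 1.72 ± 0.52, adjusted p = 0.015). The *Ereg* value rested on day 14 replicates 1 and 8, without which it was log2FC = 0.40, adjusted p = 0.633, and the call was lost when either of them alone was left out. *Pdgfa* and *Vegfa* had log2FC of 0.19 and -0.08 and did not pass the test, *Pdgfa* with the limit that it shares exon bases with a noncoding gene on the opposite strand. *Pdgfa* passed without day 7 replicate 3 (log2FC = 0.31, adjusted p = 0.0027).

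The main contractile genes did not pass the test. *Acta2* (smooth muscle actin, the usual mark of myofibroblasts) was present at 248 to 462 CPM (median 310.1) on day 7 and 229 to 598 CPM (median 296) on day 14 (log2FC = 0.14 ± 0.15, adjusted p = 0.576). *Tagln*, which shares exon bases with *Pcsk7* on the opposite strand, was present at 206 to 424 CPM (median 312) on day 7 and 225 to 644 CPM (median 312) on day 14 (log2FC = 0.15 ± 0.14, adjusted p = 0.512). The days overlapped for both genes. Both were above CTRL on each day, with log2FC of 0.52 on day 7 and 0.66 on day 14 for *Acta2*. Of 18 members of the list 6 rose and 3 fell (median log2FC 0.17), against 5 and 3 without day 14 replicates 1 and 8 (median 0.05). The members that fell were *Cnn1*, *Myh11* and *Lmod1*, which mark vascular and airway smooth muscle. *Cnn1* (calponin) was present at 28.5 to 61.5 CPM (median 48.1) on day 7 and 22.7 to 50.9 CPM (median 30.5) on day 14 (log2FC = -0.54 ± 0.16, adjusted p = 0.0124). The members that rose were *Grem1*, *Lrrc15*, *Itga11*, *Aebp1*, *Pdlim7* and *Tpm1*. *Lrrc15*, a membrane protein of matrix-producing fibroblasts, was present at 0 to 1.11 CPM (median 0.624) on day 7 and 0.656 to 9.92 CPM (median 3.09) on day 14 (log2FC = 2.49 ± 0.72, adjusted p = 0.0105), and the collagen receptor *Itga11* had log2FC = 1.09.

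Of 18 genes of resting fibroblasts 1 rose (5.56%, against 9.48% of all genes) and 3 fell (16.7%, against 7.55%), with a median log2FC of -0.16. In 7 of 12 day 14 mice the mean log2 CPM of this list lay below that of every day 7 mouse. *Inmt*, a methyltransferase of alveolar fibroblasts, was present at 546 to 1692 CPM (median 738) on day 7 and 186 to 737 CPM (median 441) on day 14 (log2FC = -0.97 ± 0.27, adjusted p = 0.00844). *Pi16*, of the adventitia, was present at 23.96 to 50.3 CPM (median 36.1) on day 7 and 9.03 to 42.4 CPM (median 22.5) on day 14 (log2FC = -0.75 ± 0.21, adjusted p = 0.00753), and 8 of 12 day 14 mice lay below every day 7 mouse. *Tcf21*, a transcription factor of alveolar fibroblasts, was present at 55.8 to 104 CPM (median 76.95) on day 7 and 25.8 to 91.5 CPM (median 64.9) on day 14 and did not pass the test (log2FC = -0.37 ± 0.18, adjusted p = 0.15). *Npnt* (nephronectin) was below CTRL on both days (log2FC of -0.55 on day 7 and -0.49 on day 14), and its change between them did not pass the test (log2FC = 0.06 ± 0.14, adjusted p = 0.8). *Cd34*, which endothelial cells carry too, was the single member to rise (log2FC = 0.25 ± 0.07, adjusted p = 0.00888).

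Many genes of lipid-associated and of interstitial macrophages rose, while those of resident alveolar macrophages went both ways. The list of lipid-associated macrophage genes, a state described in fibrotic tissue, had 10 of 17 members higher and 0 lower (median log2FC 0.64), and its mean log2 CPM separated the days completely, at 7.07 to 7.46 (median 7.20) on day 7 and 7.50 to 8.65 (median 7.93) on day 14. *Spp1* (osteopontin) was present at 26.96 to 122 CPM (median 66.7) in CTRL mice, 320.0 to 826 CPM (median 584) on day 7 and 825 to 7795 CPM (median 2666) on day 14. With 11 of 12 day 14 mice above every day 7 mouse, it rose 5.97-fold (log2FC = 2.58 ± 0.47, adjusted p = 8.33e-05). *Gpnmb*, a lysosomal membrane protein, was present at 44.5 to 189.5 CPM (median 70.9) on day 7 and 135 to 468 CPM (median 207) on day 14 (log2FC = 1.54 ± 0.31, adjusted p = 0.000421). *Trem2*, a lipid receptor, was present at 15.8 to 35.6 CPM (median 25.6) on day 7 and 35.4 to 116 CPM (median 51.4) on day 14 (log2FC = 1.23 ± 0.23, adjusted p = 0.000163). *Mmp12*, the macrophage elastase, *Lpl* and the cathepsins *Ctsl* and *Ctsb* rose with log2FC of 1.98, 0.93, 0.90 and 0.63.

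Genes of monocytes and interstitial macrophages followed, with 9 of 16 higher, 0 lower and a median log2FC of 0.66. *Apoe*, a lipid carrier that macrophages release, had the largest increase. It was present at 579.6 to 1243 CPM (median 785) on day 7 and 1218 to 6453 CPM (median 2062) on day 14 (log2FC = 1.69 ± 0.23, adjusted p = 3.6e-07). *Cd68* was present at 51.3 to 111 CPM (median 73.8) on day 7 and 94.3 to 168 CPM (median 118) on day 14 (log2FC = 0.71 ± 0.18, adjusted p = 0.0033). *Fn1* stands in this list too. The monocyte genes *Ly6c2* and *Cx3cr1* did not pass the test. *Ly6c2* was present at 7.57 to 12.1 CPM (median 8.66) on day 7 and 7.47 to 15.8 CPM (median 9.55) on day 14 (log2FC = 0.18 ± 0.16, adjusted p = 0.485). *Cx3cr1*, a chemokine receptor of patrolling monocytes, was present at 20.2 to 49.03 CPM (median 31.8) on day 7 and 7.38 to 59.9 CPM (median 40.3) on day 14 (log2FC = 0.33 ± 0.18, adjusted p = 0.189), and passed the test without day 14 replicate 8 (log2FC = 0.44, adjusted p = 0.0391) or without replicates 1 and 8 (log2FC = 0.48, adjusted p = 0.0291).

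Genes of resident alveolar macrophages, the cells that clear surfactant, went both ways, with 5 higher and 5 lower of 15 (median log2FC -0.15), against 4 and 4 without day 14 replicates 1 and 8 (median -0.07). *Atp6v0d2*, a subunit of the lysosomal proton pump, was present at 40.2 to 69.5 CPM (median 50.9) on day 7 and 75.5 to 122 CPM (median 94.7) on day 14, all day 14 mice lying above all day 7 mice (log2FC = 0.87 ± 0.20, adjusted p = 0.00156). The lysosomal protease *Ctsd* and the mannose receptor *Mrc1* rose with log2FC of 0.78 and 0.72. *Marco*, a scavenger receptor, was present at 21.1 to 43.4 CPM (median 30.3) on day 7 and 6.05 to 63.7 CPM (median 18.5) on day 14 (log2FC = -0.40 ± 0.41, adjusted p = 0.552). *Siglecf* was present at 6.59 to 13.9 CPM (median 8.92) on day 7 and 3.102 to 16.6 CPM (median 7.77) on day 14 (log2FC = -0.14 ± 0.18, adjusted p = 0.657). *Pparg*, their master regulator, had log2FC = 0.25 (adjusted p = 0.2 by edgeR). *Cidec*, a lipid droplet protein of these macrophages and of fat cells, had the largest decrease (log2FC = -2.61 ± 0.68, adjusted p = 0.0047), but it rested on day 7 replicate 8, the mouse with adipose genes. That mouse held 88.8 CPM of *Cidec* against 2.58 to 8.15 CPM in the other day 7 mice and 0.406 to 5.95 CPM on day 14, and without it *Cidec* did not pass the test (log2FC = -1.12, adjusted p = 0.233). *Fabp1*, *Krt79* and *Ear1*, which are named here after their values were seen, fell by 1.90, 1.58 and 1.44 on the log2 scale. The median of *Fabp1* was 3.41 CPM in CTRL, 0.831 CPM in day 7 mice other than replicate 8 and 0.0462 CPM on day 14. For *Krt79* these medians were 17.7, 5.32 and 1.47 CPM, so both genes were below CTRL by day 7. Without day 7 replicate 8 *Fabp1* (log2FC = -2.04, adjusted p = 0.00622) and *Krt79* (log2FC = -1.70, adjusted p = 0.00303) still passed the test.

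**Figure D3:**
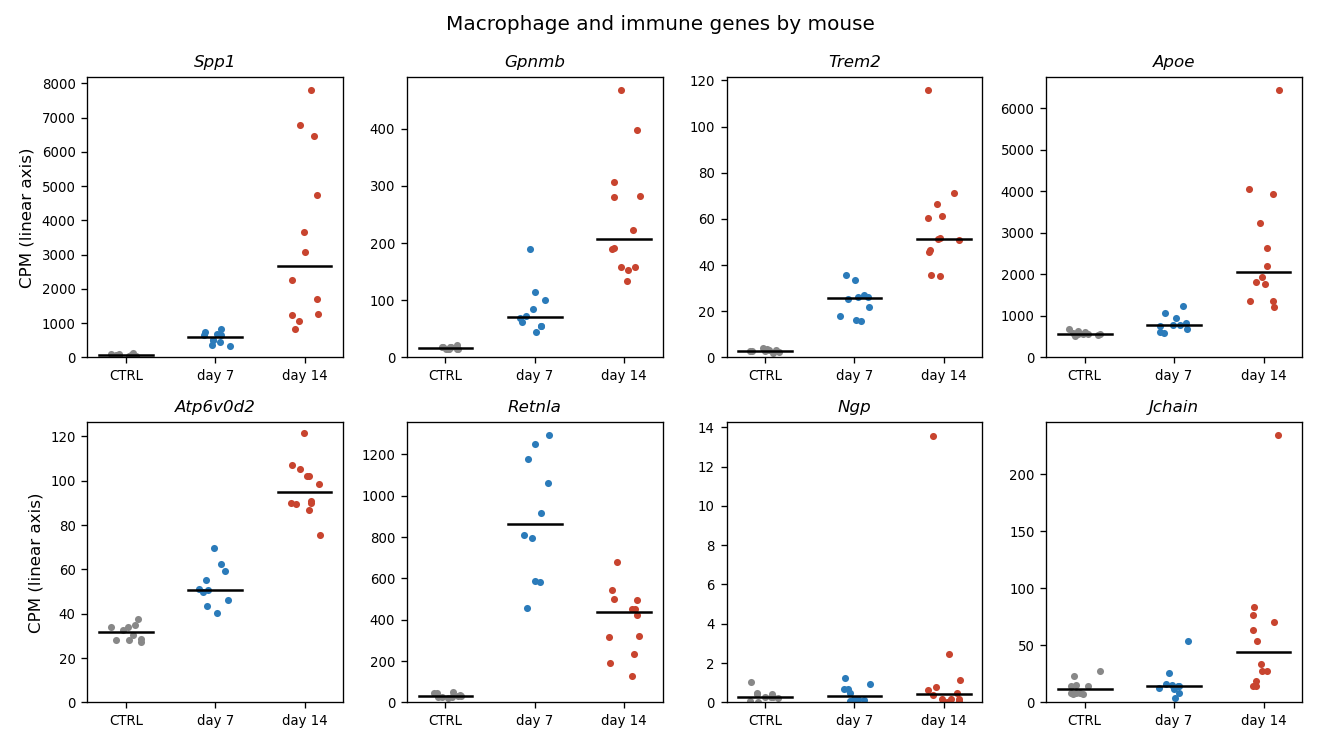
Each dot is 1 mouse and the bar is the group median, on a linear axis of CPM for CTRL, day 7 and day 14. *Spp1*, *Gpnmb*, *Trem2*, *Apoe* and *Atp6v0d2* step up, *Retnla* steps down, and the highest *Ngp* and *Jchain* values come from 1 day 14 mouse each.

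The increase of neutrophil genes rested on few mice. Of 19 neutrophil and acute phase genes 6 rose and 1 fell (median log2FC 0.47), and without day 14 replicates 1 and 8, 1 rose and 1 fell, with a median of -0.04. *S100a8* was present at 7.98 to 28.4 CPM (median 11.2) on day 7 and 8.03 to 159 CPM (median 14.3) on day 14, and 3 of 12 day 14 mice lay above every day 7 mouse (log2FC = 1.04 ± 0.32, adjusted p = 0.0157). Without day 14 replicate 8 its change was log2FC = 0.29, adjusted p = 0.455. *Ngp*, a granule protein, was present at 0.0806 to 1.22 CPM (median 0.327) on day 7 and 0 to 13.6 CPM (median 0.418) on day 14 (log2FC = 1.83 ± 0.61, adjusted p = 0.0288), and without the same mouse its change was log2FC = 0.33, adjusted p = 0.748. The *Ngp* call was also lost without day 7 replicates 2, 6 or 7. The acute phase gene *Hp* (haptoglobin) fell, being present at 727 to 1784 CPM (median 1044) on day 7 and 589.6 to 1069.8 CPM (median 862) on day 14 (log2FC = -0.50 ± 0.12, adjusted p = 0.00164). *Lcn2* and *Saa3*, both of which stood far above CTRL on day 7, had log2FC of -0.48 and 0.75 and did not pass the test.

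Chemokine genes went both ways. Of 31 tested 5 rose (16.1%, against 9.48% of all genes) and 3 fell (9.68%, against 7.55%), with a median log2FC of 0.19. Without day 14 replicates 1 and 8, 2 rose and 3 fell (median 0.07). The share that fell was near that of all genes. *Ccl9*, a ligand for myeloid cells, was present at 39.5 to 68.5 CPM (median 55.9) on day 7 and 51.2 to 202 CPM (median 94.01) on day 14 (log2FC = 0.87 ± 0.22, adjusted p = 0.0033), and its receptor *Ccr1* had log2FC = 0.79. *Cxcl12*, a stromal ligand, was present at 159 to 401 CPM (median 261) on day 7 and 239 to 624.6 CPM (median 397) on day 14 (log2FC = 0.65 ± 0.18, adjusted p = 0.00727). *Ccl11* (eotaxin, which draws eosinophils) fell from 6.09 to 24.3 CPM (median 9.38) on day 7 to 1.74 to 7.77 CPM (median 4.12) on day 14 (log2FC = -1.28 ± 0.26, adjusted p = 0.000388), and so did *Ccl17* and *Ccl22* (log2FC = -1.05 and -0.65), both ligands of CCR4 on type 2 helper T cells. *Ccl2* and *Ccr2*, the monocyte pair, had log2FC of 0.30 ± 0.44 and -0.06 ± 0.15 and did not pass the test.

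Genes of the type 2 response went both ways too, more of them falling. In the list of chitinase-like and alternative activation genes 1 of 12 rose (8.33%, against 9.48% of all genes) and 4 fell (33.3%, against 7.55%). The median log2FC was -0.05, and without day 14 replicates 1 and 8, 0 rose and 3 fell. *Retnla*, a secreted protein that IL-4 and IL-13 induce in macrophages, was present at 19.99 to 47.9 CPM (median 32.02) in CTRL mice, 457 to 1292 CPM (median 864) on day 7 and 128 to 679 CPM (median 437) on day 14. It fell 2.26-fold, with 8 of 12 day 14 mice below every day 7 mouse (log2FC = -1.18 ± 0.35, adjusted p = 0.0129). *Il33*, an epithelial alarmin, *Chia1*, a chitinase, and *Mgl2*, a lectin of macrophages and dendritic cells, fell with log2FC of -1.02, -0.91 and -0.49. *Arg1* was the exception, being present at 4.18 to 23.5 CPM (median 14.5) on day 7 and 4.59 to 186 CPM (median 19.4) on day 14 (log2FC = 1.78 ± 0.57, adjusted p = 0.0225), but it did not pass the test without day 14 replicate 8 (log2FC = 1.33, adjusted p = 0.0983) or without replicates 1 and 8 (log2FC = 1.10, adjusted p = 0.204). *Chil3* was present at 248 to 957 CPM (median 497) on day 7 and 339.5 to 1587 CPM (median 607) on day 14 (log2FC = 0.47 ± 0.29, adjusted p = 0.282).

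The complement genes that rose are those of C1q, which macrophages make, and of receptors. Of 16 components 5 rose and 1 fell (median log2FC 0.09), against 4 and 0 without day 14 replicates 1 and 8 (median 0.04). *C1qa* was present at 83.2 to 195 CPM (median 126) on day 7 and 135 to 511 CPM (median 233) on day 14 (log2FC = 1.00 ± 0.23, adjusted p = 0.0015), and *C1qb* and *C1qc* had log2FC of 1.06 and 1.08, so that all chains of C1q rose. The receptors *C3ar1* and *C5ar1* rose with 0.79 and 0.75. *C3* was present at 948 to 1638 CPM (median 1381) on day 7 and 1044 to 1561 CPM (median 1197) on day 14 (log2FC = -0.14 ± 0.13, adjusted p = 0.504), and *C7*, a fibroblast product, fell (log2FC = -0.55 ± 0.19, adjusted p = 0.0303). The *C7* call was lost without day 7 replicate 6 or day 14 replicates 2, 3 or 8 (adjusted p up to 0.0633 by edgeR).

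T cell genes rose about as often as all genes tested. In this list 2 of 20 rose (10%, against 9.48% of all genes) and 0 fell (median log2FC 0.17, or 0.28 without day 14 replicates 1 and 8). *Cd3e*, part of the T cell receptor complex, was present at 2.496 to 6.17 CPM (median 4.53) on day 7 and 1.09 to 10.1 CPM (median 3.704) on day 14 (log2FC = -0.01 ± 0.22, adjusted p = 0.977). *Cd4* was present at 6.42 to 10.9 CPM (median 8.65) on day 7 and 4.02 to 18.8 CPM (median 8.96) on day 14 (log2FC = 0.16 ± 0.20, adjusted p = 0.633). *Cd8a* was present at 4.51 to 9.68 CPM (median 6.09) on day 7 and 1.93 to 11.9 CPM (median 5.57) on day 14 (log2FC = -0.20 ± 0.22, adjusted p = 0.596). The days overlapped for these genes. The members that rose were *Foxp3*, the factor of regulatory T cells, and *Pdcd1*, the PD-1 receptor (log2FC = 1.07). *Foxp3* was present at 0.671 to 3.31 CPM (median 1.45) on day 7 and 0.755 to 7.87 CPM (median 2.55) on day 14 (log2FC = 1.18 ± 0.37, adjusted p = 0.0204), with the limits that it shares exon bases with *Ccdc22* and *Ppp1r3f* on the opposite strand and that the call was lost without day 14 replicate 2. No NK or cytotoxic gene passed the test in edgeR (0 higher and 0 lower of 9, median log2FC -0.31, or -0.17 without day 14 replicates 1 and 8), while 2 had an unadjusted p under 0.05 and 0 were called by DESeq2. *Gzmb*, a granule protease, was present at 1.29 to 4.57 CPM (median 2.08) on day 7 and 0.503 to 3.51 CPM (median 2.71) on day 14. *Ncr1*, an activating receptor of NK cells, was present at 1.38 to 4.33 CPM (median 2.18) on day 7 and 0.0838 to 3.13 CPM (median 1.82) on day 14. NK genes were already below CTRL, with list medians of -0.87 on day 7 and -1.16 on day 14 on the log2 scale.

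Plasma cell genes rose in some mice. Of 21 B cell and plasma cell genes 3 rose (14.3%, against 9.48% of all genes) and 0 fell, and all that rose are products of plasma cells. Without day 7 replicate 8, 5 rose. *Jchain*, which joins IgA and IgM molecules, was present at 3.51 to 54.2 CPM (median 14.4) on day 7 and 14.05 to 234 CPM (median 43.9) on day 14 (log2FC = 1.76 ± 0.54, adjusted p = 0.0174). *Ighg1* was present at 0.461 to 6.13 CPM (median 1.24) on day 7 and 0.458 to 75.5 CPM (median 8.801) on day 14 (log2FC = 2.81 ± 0.87, adjusted p = 0.0174), and *Igha* had log2FC = 2.39. The *Jchain* and *Ighg1* calls were each lost without day 14 replicate 2 (log2FC = 1.31, adjusted p = 0.0776 for *Jchain*). B cell genes did not pass the test. *Ighm*, the heavy chain of IgM, was present at 69.7 to 419.6 CPM (median 124) on day 7 and 33.4 to 356 CPM (median 124) on day 14 (log2FC = 0.02 ± 0.52, adjusted p = 0.984). Immunoglobulin genes are near copies of each other, so that their separate values are uncertain. No MHC class II gene passed the edgeR test (0 higher and 0 lower of 10, median log2FC 0.09), while 1 had an unadjusted p under 0.05 and 0 were called by DESeq2. *Cd74* had log2FC = 0.14, *H2-Aa* 0.13 and their regulator *Ciita*, which shares exon bases with *Dexi*, -0.01.

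Of 26 interferon-stimulated genes 5 rose (19.2%, against 9.48% of all genes tested) and 0 fell, and 25 had a positive log2FC (median 0.24). The count was 8 and 0 without day 14 replicates 1 and 8 (median 0.31). The members that rose were the oligoadenylate synthetases *Oas1a*, *Oas2* and *Oas3*, with *Rsad2* (viperin) and *Ifit2*. *Oas3* was present at 2.76 to 9.06 CPM (median 5.25) on day 7 and 3.61 to 18.6 CPM (median 9.26) on day 14 (log2FC = 0.94 ± 0.28, adjusted p = 0.0142). *Isg15* was present at 12.2 to 22.4 CPM (median 18.3) on day 7 and 12.5 to 40.2 CPM (median 22.5) on day 14 (log2FC = 0.48 ± 0.19, adjusted p = 0.0609). *Ifit1* was present at 33.7 to 45.4 CPM (median 36.98) on day 7 and 27.6 to 92.7 CPM (median 44.6) on day 14 (log2FC = 0.46 ± 0.18, adjusted p = 0.0653). *Isg15* passed the test when any 1 of 6 mice was left out and *Ifit1* when any 1 of 5 was, and both passed without day 14 replicates 1 and 8 (adjusted p = 0.0415 for *Isg15* and 0.0254 for *Ifit1* by edgeR). *Cxcl10*, which shares exon bases with *Art3*, was present at 6.62 to 24.5 CPM (median 11.9) on day 7 and 3.99 to 35.7 CPM (median 12.1) on day 14 (log2FC = 0.06 ± 0.31, adjusted p = 0.92). Promoters were searched for GAAA, a pair of free bases and GAAA again, the core that interferon factors bind, in the 250 bases before to 50 after each start given by RefSeq for GRCm38.p6, on both strands. Of 20 list members with a promoter 13 held it (65%), against 3.99% of 27025 genes. Their median log2FC was 0.23 with the motif and 0.36 in the 7 without it. The sequences show where the motif lies in the members that rose and hold it before the start, read 5′ to 3′ on the gene's strand with the motif or its reverse complement in capitals.
Oas1a (chr5:120907526-120907561, minus strand): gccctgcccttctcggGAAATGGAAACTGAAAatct
Oas3 (chr5:120777703-120777756, minus strand): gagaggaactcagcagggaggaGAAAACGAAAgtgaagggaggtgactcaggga
Rsad2 (chr12:26456541-26456594, minus strand): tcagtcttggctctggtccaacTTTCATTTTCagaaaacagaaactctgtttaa
In *Oas1a* the capitals mark 2 overlapping matches. A match is a description of the sequence and shows no binding.

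Genes of cell division were above CTRL on both days. All 26 mitosis genes had a positive log2FC from day 7 to day 14, with a median of 0.39. Of them 4 were DEGs (15.4%, against 9.48% of all genes being higher). Relative to CTRL the list median was 1.83 on day 7 and 2.29 on day 14. The DEGs were *Cenpf*, *Prc1*, *Foxm1* and *Cenpa*. *Cenpf*, a kinetochore protein, was present at 7.205 to 26.5 CPM (median 17.5) on day 7 and 12.2 to 45.98 CPM (median 28.3) on day 14 (log2FC = 0.77 ± 0.23, adjusted p = 0.0141). *Mki67* was present at 40.1 to 91.3 CPM (median 68.04) on day 7 and 50.9 to 142 CPM (median 96.7) on day 14 (log2FC = 0.49 ± 0.22, adjusted p = 0.111), with 7 of 12 day 14 mice above every day 7 mouse. *Cdk1*, the mitotic kinase, was present at 9.87 to 19.3 CPM (median 16.2) on day 7 and 15.9 to 29.1 CPM (median 20.99) on day 14 (log2FC = 0.47 ± 0.21, adjusted p = 0.117), with 9 of 12 above. *Ccnb1* had log2FC = 0.28 (adjusted p = 0.45 by edgeR). S phase genes moved less, with 1 of 25 higher (4%, against 9.48% of all genes), 0 lower and a median of 0.18. *Pcna*, the DNA clamp, was present at 64.1 to 85.9 CPM (median 73.5) on day 7 and 61.3 to 81.3 CPM (median 76.4) on day 14. *Mcm5*, a helicase subunit, was present at 28.6 to 45.2 CPM (median 36.2) on day 7 and 20.96 to 48.3 CPM (median 40.2) on day 14. *Rrm2*, a ribonucleotide reductase subunit, was present at 14.5 to 25.96 CPM (median 22.9) on day 7 and 19.1 to 33.6 CPM (median 25.9) on day 14. These genes overlapped between the days, and *E2f1*, a transcription factor of S phase, was the member that rose (log2FC = 0.31 ± 0.10, adjusted p = 0.0166). The *E2f1* call was lost without day 7 replicate 5 (log2FC = 0.26, adjusted p = 0.0549).

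The mitosis genes share a promoter element that the S phase genes mostly lack. TTTGAA or TTCGAA, the CHR element that the DREAM complex binds, was found on either strand in 17 of 21 mitosis genes with a promoter (80.95%) and 3 of 19 S phase genes (15.8%), against 21.7% of 27025 genes. CCAAT, which NF-Y binds, was found in 18 and 13 of them (85.7% and 68.4%), against 41.1%. Within the mitosis list the median log2FC was 0.39 with a CHR element and 0.27 in the 4 genes without. *Prc1*, which holds the spindle midzone together, rose with log2FC = 0.61. Of the 3 DEGs of the list with a promoter, all hold the element, and *Prc1* is shown because it alone has it before its start (capitals mark the element).
Prc1 (chr7:80294424-80294473, plus strand): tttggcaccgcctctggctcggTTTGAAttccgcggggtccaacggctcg

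p53 target genes, which report DNA damage, were high on both days. Of 24 tested 0 rose and 7 fell between the days (median log2FC -0.07), while relative to CTRL their median was 0.45 on day 7 and 0.36 on day 14. *Cdkn1a* (p21) was present at 22.6 to 49.2 CPM (median 30.8) in CTRL mice, 233 to 425 CPM (median 278) on day 7 and 199.5 to 565 CPM (median 241) on day 14 (log2FC = -0.05 ± 0.14, adjusted p = 0.857). Its log2FC relative to CTRL were 3.20 on day 7 and 3.15 on day 14, and no change between the days was detected. *Gdf15*, a stress cytokine, was present at 6.62 to 13.9 CPM (median 11.6) on day 7 and 3.57 to 11.1 CPM (median 8.57) on day 14 and fell (log2FC = -0.51 ± 0.16, adjusted p = 0.0246), a call lost without day 7 replicate 5 or day 14 replicates 1 or 8 (adjusted p up to 0.0588). *Perp*, a desmosome protein of epithelial cells, was present at 28.8 to 45.5 CPM (median 41.6) on day 7 and 19.1 to 49.9 CPM (median 26.6) on day 14, and 9 of 12 day 14 mice lay below every day 7 mouse (log2FC = -0.51 ± 0.12, adjusted p = 0.0016). *Mdm2* and *Eda2r* had log2FC of -0.12 and 0.37 and did not pass the test, but *Mdm2* passed without day 14 replicate 8 (log2FC = -0.18, adjusted p = 0.0136) or without replicates 1 and 8 (log2FC = -0.22, adjusted p = 0.00136). *Eda2r* passed without day 7 replicate 1 or day 14 replicate 11 (adjusted p down to 0.041 by edgeR).

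The chaperone genes of the endoplasmic reticulum carry a shared element as well. CCAAT followed by 9 bases and CCACG was found in 7 of 22 of them (31.8%), against 0.137% of all genes. Their median log2FC was 0.02 with it and 0.04 without.

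Many genes of type 2 cells and of the airway fell. Of 17 type 2 and surfactant genes 0 rose and 8 fell (median log2FC -0.39), and without day 14 replicates 1 and 8, 4 fell. Relative to CTRL the list median was -0.14 on day 7 and -0.58 on day 14. *Sftpc*, the surfactant protein that only type 2 cells make, was present at 9113 to 18588 CPM (median 11523) on day 7 and 3337 to 13529 CPM (median 6902) on day 14, and 8 of 12 day 14 mice lay below every day 7 mouse (log2FC = -0.64 ± 0.18, adjusted p = 0.00994). Without day 14 replicates 1 and 8 it just missed the threshold (log2FC = -0.52, adjusted p = 0.0519). *Lyz1*, a lysozyme of type 2 cells in the mouse, fell most, being present at 161 to 429 CPM (median 271) on day 7 and 17.7 to 269 CPM (median 82.5) on day 14 (log2FC = -1.35 ± 0.35, adjusted p = 0.00437). *Sftpa1*, *Sftpb* and *Sftpd* fell with log2FC of -0.77, -0.70 and -0.61. *Abca3* and *Etv5* were among the members that did not pass the test. *Abca3*, the lipid pump of lamellar bodies, was present at 410.0 to 643 CPM (median 508) on day 7 and 232 to 694 CPM (median 456) on day 14 (log2FC = -0.24 ± 0.12, adjusted p = 0.169). *Etv5*, a transcription factor of type 2 cells, was present at 69.9 to 98.6 CPM (median 91.6) on day 7 and 35.2 to 121 CPM (median 64.4) on day 14 (log2FC = -0.39 ± 0.16, adjusted p = 0.0857). *Abca3* passed without day 14 replicate 5 (adjusted p = 0.0443 by edgeR), and *Etv5* without day 14 replicates 5 or 11 (down to 0.0202).

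No type 1 cell gene passed the edgeR test (0 higher and 0 lower of 14, median log2FC -0.05), while 1 had an unadjusted p under 0.05 and 0 were called by DESeq2. *Ager*, a membrane receptor, was present at 1596 to 3129.5 CPM (median 1916) on day 7 and 1221 to 2343 CPM (median 1835) on day 14 (log2FC = -0.17 ± 0.12, adjusted p = 0.344). *Aqp5*, a water channel, was present at 266 to 468 CPM (median 279) on day 7 and 233 to 377 CPM (median 292) on day 14 (log2FC = -0.05 ± 0.10, adjusted p = 0.751). *Hopx*, a homeodomain protein, was present at 376 to 838 CPM (median 464) on day 7 and 349.6 to 564 CPM (median 449.8) on day 14 (log2FC = -0.21 ± 0.14, adjusted p = 0.336). Genes of the transitional and basal states split, with 4 of 17 higher and 4 lower (median log2FC 0.02). Under library size or upper quartile scaling this median was -0.02 or -0.01. Among the members that fell were keratins that mark the transitional state. *Krt8* was present at 119 to 175 CPM (median 146) in CTRL mice, 220.1 to 391 CPM (median 291) on day 7 and 178 to 296 CPM (median 210.5) on day 14 (log2FC = -0.41 ± 0.11, adjusted p = 0.00812), and *Krt18* and *Krt19* had log2FC of -0.42 and -0.69. *Sprr1a*, a cornified envelope protein that was near 0 in CTRL mice, was present at 14 to 31.7 CPM (median 22.5) on day 7 and 5.66 to 16.3 CPM (median 7.58) on day 14, and 11 of 12 day 14 mice lay below every day 7 mouse (log2FC = -1.38 ± 0.28, adjusted p = 0.000321). *Cdkn2a*, a cell cycle inhibitor of senescent cells, was 1 of the 4 members that rose. It was present at 0.102 to 1.86 CPM (median 0.799) on day 7 and 0.832 to 3.85 CPM (median 2.096) on day 14 (log2FC = 1.24 ± 0.34, adjusted p = 0.00685). As many members of the list rose as fell, so no direction of the state is read from these genes. *Cldn4* was present at 29.8 to 58.1 CPM (median 49.9) on day 7 and 25.95 to 102 CPM (median 44.9) on day 14 (log2FC = 0.26 ± 0.30, adjusted p = 0.596). *Krt5*, of basal cells, was present at 0 to 0.0921 CPM (median 0) on day 7 and 0 to 2.29 CPM (median 0.141) on day 14, and did not pass the test (adjusted p = 0.141 by edgeR).

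**Figure D4:**
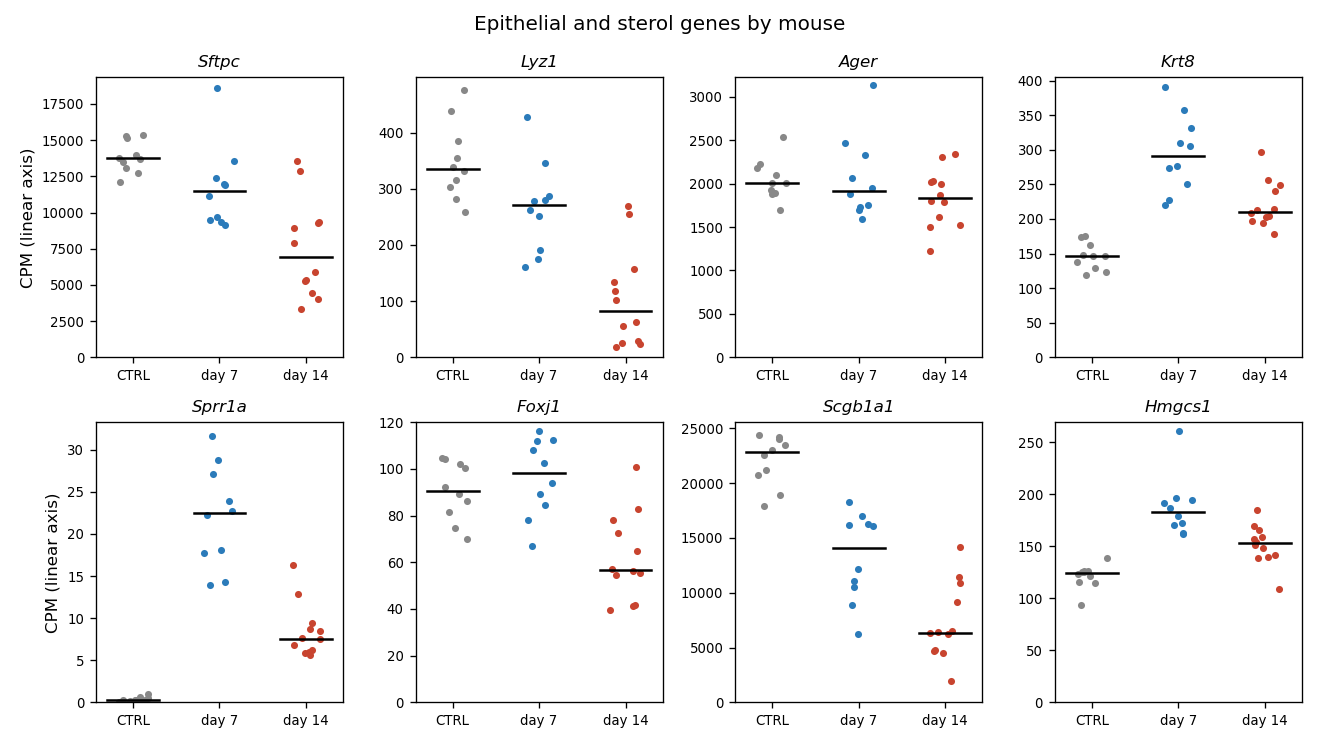
Each dot is 1 mouse and the bar is the group median, on a linear axis of CPM for CTRL, day 7 and day 14. *Sftpc*, *Lyz1*, *Foxj1* and *Scgb1a1* are lower on day 14 with wide spread, *Ager* overlaps, and *Krt8*, *Sprr1a* and *Hmgcs1* rise by day 7 and are lower on day 14.

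In the airway, of 13 secretory genes 0 rose and 6 fell (median log2FC -0.47), against 0 and 4 without day 14 replicates 1 and 8 (median -0.49). Of 15 ciliated cell genes 0 rose and 11 fell (median log2FC -0.64), against 0 and 8 without day 14 replicates 1 and 8 (median -0.59). *Scgb1a1*, the main secretion of club cells, was present at 6244 to 18312 CPM (median 14088) on day 7 and 1944 to 14164 CPM (median 6356) on day 14 (log2FC = -0.87 ± 0.22, adjusted p = 0.00339). *Gsta3*, a glutathione transferase, was present at 78.1 to 252 CPM (median 177) on day 7 and 54.5 to 128 CPM (median 69.03) on day 14 (log2FC = -1.16 ± 0.19, adjusted p = 2.64e-05). Goblet cell mucin *Muc5b* varied widely within each day, at 7.73 to 63.1 CPM (median 15.4) on day 7 and 3.23 to 74.8 CPM (median 10.5) on day 14 (log2FC = -0.08 ± 0.50, adjusted p = 0.94). *Foxj1*, the factor that makes cells ciliated, was present at 66.9 to 116 CPM (median 98.2) on day 7 and 39.5 to 101 CPM (median 56.7) on day 14, and 8 of 12 day 14 mice lay below every day 7 mouse (log2FC = -0.64 ± 0.17, adjusted p = 0.0048). *Sntn*, a protein of the ciliary tip, fell most (log2FC = -0.91 ± 0.21, adjusted p = 0.00169), and *Dnah5*, a dynein arm, did not pass the test (log2FC = -0.63 ± 0.25, adjusted p = 0.0678) but did without day 7 replicate 3 or day 14 replicates 6 or 11 (adjusted p down to 0.0358). The list mean of the ciliated genes was 4.31 to 5.06 (median 4.69) on day 7 and 3.12 to 4.69 (median 4.00) on day 14, with 9 of 12 day 14 mice below every day 7 mouse. Members that did not pass the test included *Bpifa1* and *Scgb3a1*, with log2FC of 1.53 and 1.10.

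Of 22 endothelial genes 2 rose (9.09%, against 9.48% of all genes) and 0 fell, against 1 and 0 without day 14 replicates 1 and 8. The list medians relative to CTRL were -0.39 on day 7 and -0.49 on day 14. *Vwa1*, which is also a matrix protein, had log2FC = 0.72. *Kdr* was present at 255 to 472 CPM (median 358) on day 7 and 163 to 512 CPM (median 332) on day 14 (log2FC = -0.15 ± 0.16, adjusted p = 0.583). *Pecam1* was present at 582 to 938 CPM (median 730.4) on day 7 and 476 to 881 CPM (median 652) on day 14 (log2FC = -0.14 ± 0.10, adjusted p = 0.342). *Plvap* was present at 352 to 567 CPM (median 421) on day 7 and 176 to 529.7 CPM (median 346) on day 14 (log2FC = -0.31 ± 0.17, adjusted p = 0.217). *Ackr1*, of venules, rose from 0.671 to 4.49 CPM (median 2.25) on day 7 to 1.64 to 14.1 CPM (median 5.49) on day 14 (log2FC = 1.40 ± 0.44, adjusted p = 0.0184), with the limit that it shares exon bases with *Cadm3* on the same strand. *Ackr1* did not pass the test without day 14 replicates 1 and 8 (log2FC = 1.10, adjusted p = 0.0958).

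Genes of sterol synthesis turned back towards CTRL. Of 24 genes of fatty acid and cholesterol synthesis 0 rose and 12 fell (median log2FC -0.29), and the list median relative to CTRL was 0.52 on day 7 and 0.12 on day 14. Among those that fell were *Idi1*, *Sqle*, *Lss* and *Fdft1*, enzymes of sterol synthesis, and *Srebf2*, the transcription factor that controls them. *Hmgcs1*, which commits acetyl-CoA to sterols, was present at 162 to 261 CPM (median 183) on day 7 and 109 to 185 CPM (median 153) on day 14, and 9 of 12 day 14 mice lay below every day 7 mouse (log2FC = -0.31 ± 0.09, adjusted p = 0.00852). *Idi1*, an isomerase of the same path, was present at 8.34 to 18.7 CPM (median 11.7) on day 7 and 5.01 to 10.2 CPM (median 7.56) on day 14 (log2FC = -0.68 ± 0.14, adjusted p = 0.000428). The genes of fatty acid synthesis did not pass the test with all mice. *Fasn*, the synthase, was present at 442 to 764 CPM (median 611) on day 7 and 254 to 983 CPM (median 476) on day 14 (log2FC = -0.28 ± 0.16, adjusted p = 0.231), and passed without day 14 replicate 5 (log2FC = -0.42, adjusted p = 0.0448). *Scd1*, a desaturase, was present at 1532 to 4047 CPM (median 2352) on day 7 and 1536 to 5200.2 CPM (median 2351) on day 14 (log2FC = 0.01 ± 0.19, adjusted p = 0.986). Without day 14 replicates 1 and 8, 12 members fell.

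Antioxidant genes fell more often than they rose, 2 of 20 being higher (10%, against 9.48% of all genes) and 8 lower (40%, against 7.55%). The median log2FC was -0.15, and without day 14 replicates 1 and 8, 0 were higher and 8 lower. Among those that fell were the glutathione transferases *Gsta2*, *Gsta4*, *Gstm1* and *Gstp1*. *Gsta2* fell most, being present at 1.38 to 2.78 CPM (median 2.06) on day 7 and 0.298 to 2.21 CPM (median 0.663) on day 14 (log2FC = -1.34 ± 0.30, adjusted p = 0.00115). Those that rose were *Slc7a11* and *Hmox1*. *Slc7a11*, the cystine transporter, was present at 4.22 to 10.2 CPM (median 7.496) on day 7 and 7.54 to 20.8 CPM (median 11.9) on day 14 (log2FC = 0.87 ± 0.26, adjusted p = 0.014). *Hmox1*, which breaks down heme, was present at 45.9 to 102 CPM (median 62.2) on day 7 and 64.6 to 158 CPM (median 75.3) on day 14 (log2FC = 0.52 ± 0.19, adjusted p = 0.0456). The *Hmox1* call was lost when any 1 of 11 mice of either day was left out (adjusted p up to 0.12 by edgeR). Neither call held without day 14 replicates 1 and 8 (log2FC = 0.74, adjusted p = 0.0591 for *Slc7a11*, log2FC = 0.42, adjusted p = 0.14 for *Hmox1*). *Nqo1*, the classical NRF2 target, had log2FC = -0.05 (adjusted p = 0.843 by edgeR).

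Clock genes are given because the hour of killing was not stated in the sources used here, and its part in the values was not tested. Of 18 genes 1 rose (5.56%, against 9.48% of all genes) and 6 fell (33.3%, against 7.55%). The median log2FC was -0.14, and without day 14 replicates 1 and 8, 0 rose and 5 fell. *Per2* was present at 58.5 to 116 CPM (median 96.9) on day 7 and 31.4 to 94.9 CPM (median 56.7) on day 14 (log2FC = -0.69 ± 0.18, adjusted p = 0.00437). *Arntl* was present at 3.16 to 12.5 CPM (median 5.78) on day 7 and 4.02 to 40.8 CPM (median 8.33) on day 14 (log2FC = 0.68 ± 0.27, adjusted p = 0.0651), and passed when any 1 of 5 mice was left out (adjusted p down to 0.0317). *Dbp*, which shares exon bases with *Sphk2*, ranged about as widely within each day, at 27.5 to 216 CPM (median 74.1) on day 7 and 18.8 to 147 CPM (median 90.5) on day 14, as between the days (log2FC = -0.19 ± 0.28, adjusted p = 0.683). *Nfil3* rose (log2FC = 0.86 ± 0.29, adjusted p = 0.0273), but not without day 7 replicates 3 or 7 or day 14 replicates 1, 3 or 8, nor without day 14 replicates 1 and 8 together (log2FC = 0.30, adjusted p = 0.489).

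Seen by mouse, the day 14 group held a wide range of responses. The mean log2 CPM of the interstitial collagen list was 5.65 to 6.55 (median 6.10) on day 7 and 6.30 to 7.84 (median 7.09) on day 14. Day 14 replicates 1, 3 and 4 were highest at 7.84, 7.69 and 7.46, and replicate 11 was the single day 14 mouse inside the day 7 range at 6.30. The type 2 list ran the opposite way, at 8.96 to 9.35 (median 9.19) on day 7 and 7.80 to 9.48 (median 8.65) on day 14. Its lowest mice were day 14 replicates 1, 8 and 3 at 7.80, 7.87 and 7.89, and its highest were replicates 5 and 11 at 9.48 and 9.32, whose collagen means were 6.68 and 6.30. MHC class II means were 5.93 to 7.01 (median 6.55) on day 7 and 4.65 to 7.36 (median 6.64) on day 14, and day 14 replicates 8 and 1 were lowest at 4.65 and 5.32. In the same mice NK means were -0.93 and 0.07, and neutrophil means 4.54 and 3.86, the highest of that day.

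**Figure D5:**
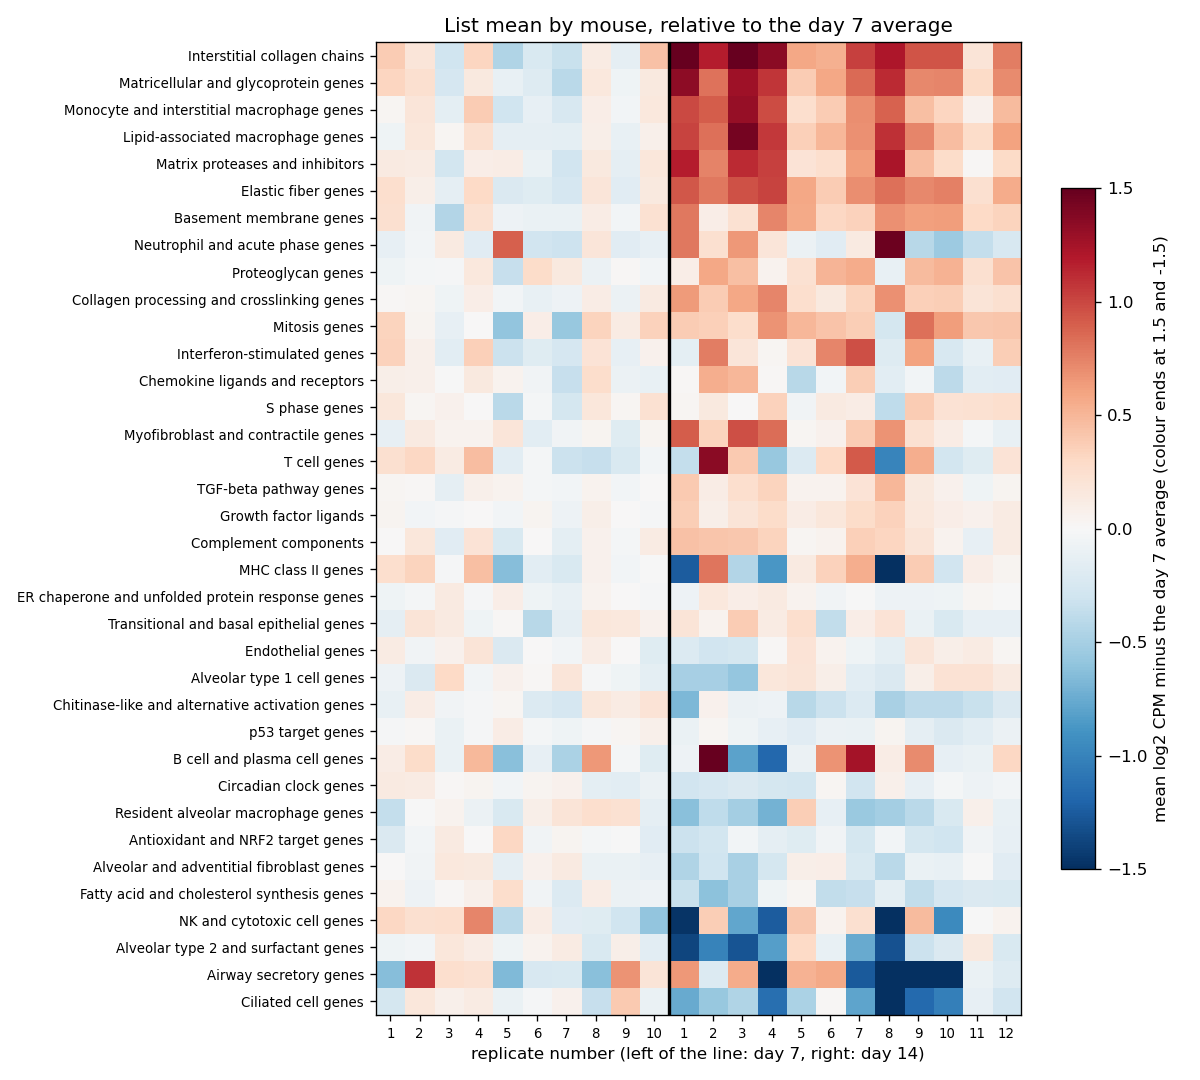
Rows are gene lists and columns are mice, day 7 left and day 14 right of the line, numbered by replicate, and color gives the mean log2 CPM of a list minus its day 7 average. The rows of the matrix lists and of the interstitial and lipid-associated macrophage lists are red across most day 14 mice, strongest in replicates 1, 3, 4 and 8. Those of the resident alveolar macrophage, type 2 and ciliated lists are mostly blue, while the airway secretory row is mixed.

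Genes of tissues that a dissected lobe can carry were summed in each mouse. Cardiac muscle genes summed to 49.7 to 431 CPM on day 7 and 45.9 to 439 CPM on day 14, with 0 higher and 0 lower of 8 by edgeR, 0 by DESeq2, 3 with an unadjusted p under 0.05, and a median log2FC of 1.24. The median sum of the cardiac genes was 74.5 CPM on day 7 and 139 CPM on day 14. *Myh6*, which marks heart muscle, ran from 0 to 182 CPM on day 7 and from 0 to 181 CPM on day 14, so that some mice of both days carried it. The days were not alike, since its median was 41.9 CPM on day 14. On day 7 replicate 8 held 0 CPM of *Myh6*, and the median of the other day 7 mice was 0.102 CPM. Adipose genes summed to 1.85 to 110.3 CPM on day 7 and 0.512 to 4.902 CPM on day 14, and 2 of 4 fell, which were *Adipoq* and *Plin1*. Nerve genes summed to 276 to 623 CPM on day 7 and 304 to 659 CPM on day 14, and 2 of 7 fell, *Ngfr* among them, and 1 without day 14 replicates 1 and 8. Without day 7 replicate 8, 0 adipose and 0 nerve genes passed the edgeR test, *Adipoq* having log2FC = -0.35 (adjusted p = 0.866). Red blood cell genes summed to 634 to 1724 CPM on day 7 and 225 to 1690.0 CPM on day 14, mesothelial genes to 169 to 314 CPM on day 7 and 166 to 426 CPM on day 14, thymus genes to 4.74 to 8.11 CPM on day 7 and 3.79 to 7.37 CPM on day 14 and skeletal muscle genes to 4.89 to 8.11 CPM on day 7 and 3.69 to 12.5 CPM on day 14, and none of their 6, 6, 3 and 3 tested members passed the edgeR test, had an unadjusted p under 0.05 or was called by DESeq2 (median log2FC -0.13, -0.06, -0.31 and -0.41). Mitochondrially encoded genes summed to 12916 to 18852 CPM on day 7 and 8369.6 to 16209.8 CPM on day 14, 2 of 7 falling (median log2FC -0.30) and 0 without day 14 replicates 1 and 8. The part of these tissues in the results above was not tested beyond the refits given.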

How the data were processed

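RNA was measured in the inferior lung lobe of 75 mice in 7 groups, of which the 10 CTRL, 10 day 7 and 12 day 14 mice were compared here, grouped by their labels. Libraries were made with a directional kit and sequenced as single reads. The authors aligned reads with STAR 2.7.0f to GRCm38 with Ensembl annotation and deposited raw counts per gene, 1 column per mouse. The counting program and its strand setting are not given in the sources used here, so 9 named genes that share exon bases with another counted gene are marked as such. All 55536 genes had a name and position in the annotation, 38610 had a count in some mouse, and no column was left unused.

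From these counts edgeR 4.0.16 in R 4.3.3 (TMM factors, quasi-likelihood test) was fitted to all 7 groups, which share an estimate of the spread, after edgeR's filter on low counts, and p-values were adjusted by Benjamini-Hochberg over all genes tested at a threshold of 0.05. The p-values rest on the spread between mice within all 7 groups, not within the 2 groups compared alone. The labels give the mice as separate animals. List means are of log2 CPM with a prior count of 2. The 44 gene lists, the members named from them and the mice compared were chosen with earlier results of these data known, so no list is independent evidence of its direction. Named genes were the 10 largest increases and decreases among protein-coding DEGs whose days did not overlap and whose mean log2 CPM was above 1, the leading members of each list, and the DEGs with the largest change either way in each list. The test was tried on simulated counts, in which it recovered 197 of 200 changed genes (98.5%) and called 12 unchanged genes among 16117 tested. All planted changes were larger than the median change of the DEGs and lay in the more highly expressed genes. The share recovered among smaller changes or scarcer genes was not tested. Alternatives were DESeq2 1.42.0, library size or upper quartile scaling, no filter, a minimum of 10 counts in each mouse, a fold change threshold, a fit to the 2 groups alone, a replicate block and leaving out each mouse. Leaving out day 14 replicates 1 and 8 together, and the list counts without day 7 replicate 8, were added after the data were seen. Some named genes are not reported here. No pair of mice within a group had counts that agreed within sampling noise (lowest chi-square per degree of freedom 4.90).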

Additional observations from a re-analysis of the deposited data

Results flagged for a closer look

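In CTRL and day 7 mice, the groups of 10, the levels of the named genes were searched for a mouse far from the others of its group (Dixon's ratio above 0.466). Of 316 gene and group combinations 23 had such a mouse. For independent normal values chance gives about 1 in 20, a rate that need not hold for CPM on a linear scale. Groups of more than 10 were not searched, which leaves out the 12 day 14 mice.

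CTRL replicate 2 accounted for 7 of these values, which were *Saa3* (highest, 7.39 CPM), *Chil3* (highest, 715 CPM), *Arg1* (highest, 4.29 CPM), *Tgfbr1* (lowest, 76.5 CPM), *Pdia4* (highest, 142 CPM), *Plvap* (highest, 778 CPM), *Cnn1* (lowest, 28.7 CPM). The other CTRL values were *Pcna* (lowest, 41.6 CPM), *Ifit1* (highest, 31.6 CPM), *Tagln* (highest, 238 CPM), *Pecam1* (lowest, 840.5 CPM), *Hmgcs1* (lowest, 93.3 CPM), *Nqo1* (lowest, 5.73 CPM), *Mmp10* (highest, 0.0987 CPM). Day 7 replicate 3 accounted for 5, which were *C3* (lowest, 948 CPM), *Pdgfa* (highest, 166 CPM), *Aqp5* (highest, 468 CPM), *C7* (lowest, 266 CPM), *Sel1l* (lowest, 168 CPM). The remaining day 7 values were *Ighm* (highest, 419.6 CPM), *H2-Aa* (lowest, 322 CPM), *Hmgcs1* (highest, 261 CPM), *Cidec* (highest, 88.8 CPM), of which *Ighm* and *Cidec* came from replicate 8, the mouse with adipose genes.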

How the results depend on the processing

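The count of DEGs (2763, with 1538 higher and 1225 lower) was 2970 with DESeq2, 2076 with no filter on low counts, 2442 with at least 10 counts in each mouse and 2154 with the 2 groups alone. With an absolute log2FC of at least 0.5 required as well it was 1319 (716 higher and 603 lower). Leaving out each mouse in turn gave 2231 to 3230 DEGs, 1222 to 1747 higher and 964 to 1483 lower. Of 98 named DEGs, 98 kept their call with DESeq2, 95 with either other scaling, 90 with no filter and 81 without day 14 replicates 1 and 8, where 16 lost it and *Ngp* turned to -0.191. Of 60 named genes without a call, 2 gained one with DESeq2, 1 with either other scaling and 0 with no filter. With the replicate block 4 gained one, as did 4 without day 14 replicates 1 and 8, and 4 of 59 with the 2 groups alone. *Cdk1*, *Mki67*, *Lcn2* and *Tcf21* each passed under some alternative. The test reported does not pair mice by the replicate numbers of the labels. Correlations of so few pairs cannot decide whether same-numbered mice share a block. Of 10 same-numbered pairs 4 correlated at or below 0.1 (range -0.23 to 0.28), and 2 day 7 mice matched their own number best. With the replicate block there were 3353 DEGs (1820 higher and 1533 lower), and 97 of the named DEGs kept their call.

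The other named genes that changed sign under an alternative had no call in the test reported. With library size scaling the log2FC were *Pcna* -0.0241, *Gzmb* -0.0227, *Ighm* -0.0148, *Scd1* -0.0289. With upper quartile factors they were *Pcna* -0.0192, *Gzmb* -0.02104, *Ighm* -0.00725, *Scd1* -0.0263. With the 2 groups alone they were *Gzmb* -0.00398, *Scd1* -0.00154. With the replicate block they were *Gzmb* -0.000774, *Ighm* -0.00771, *Dcn* 0.0242. Without day 14 replicates 1 and 8 they were *Ccl2* -0.171, *Ccr2* 0.0673, *Cd3e* 0.143, *Ighm* -0.105, *Ciita* 0.154. With each mouse left out in turn the log2FC ranged over *Cdkn1a* -0.185 to 0.0281, *Pcna* -0.0106 to 0.0334, *Cxcl10* -0.145 to 0.194, *Ccr2* -0.147 to 0.0258, *Cd3e* -0.203 to 0.0837, *Gzmb* -0.0669 to 0.156, *Ighm* -0.181 to 0.368, *Ciita* -0.0961 to 0.0972, *Dcn* -0.0949 to 0.0364, *Aqp5* -0.0968 to 0.0237, *Muc5b* -0.501 to 0.309, *Scd1* -0.145 to 0.09997, *Nqo1* -0.132 to 0.0768, *Dbp* -0.309 to 0.0206. Genes under about 1 CPM rest on few counts per mouse.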
